A study of Mus musculus with 6 samples.

Results

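Coagulation and fibrinolysis genes are described here in the dental pulp of WT and Mmp13-/- mice. The set holds 31 genes named by symbol, and all 31 were found among the 53342 genes of the table. The rule that names them uses no measured value, but they were chosen with earlier results of these data known. Pulp RNA was sequenced from 3 WT samples (replicates 2, 4 and 5) and 3 Mmp13-/- samples (replicates 1, 2 and 6), all from C57BL/6 mice aged 3 months. Mmp13 encodes collagenase-3, a matrix metalloproteinase, and the Mmp13-/- mice were homozygous for its loss in every cell rather than in a chosen cell type. Per the study's methods the mice were male and each library was an independent biological sample, but whether pulps of several animals were pooled is not stated. Molars are named in the sample labels and incisors in the methods, and this difference was not resolved here. The question was which clotting genes pulp itself expressed, and how these and the genes normally confined to liver differed between genotypes.

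Blood clotting is a cascade of proteases in which each activated factor cleaves the next. Tissue factor on cells outside the vessel binds factor VII, factor X and its cofactor factor V turn prothrombin into thrombin, and thrombin cuts fibrinogen into fibrin, which factor XIII crosslinks. Tissue factor pathway inhibitor, antithrombin and the protein C system restrain the cascade, and plasmin, made from plasminogen by tissue-type and urokinase-type activators, dissolves the clot. Most soluble factors are secreted by hepatocytes, whereas endothelium, macrophages, platelets and mesenchymal cells make the receptors, von Willebrand factor, the plasminogen activators and the factor XIII A chain. The 31 genes were therefore placed in 3 classes by where they are generally known to be expressed, 12 as locally made, 4 as made in liver and elsewhere (F5, F7, F8 and F10) and 15 as liver-restricted.

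The labels and libraries were examined before the members. Mmp13 averaged 969 normalised counts in WT and 34.3 in the Mmp13-/- samples, and its log2 fold change was -4.96 (SE 0.46, adjusted p = 7.67e-05). Every adjusted p given here is from the quasi-likelihood test of edgeR, adjusted by Benjamini and Hochberg's method over all genes tested. A normalised count is a count scaled to the mean library by TMM factors. The odontoblast gene Dspp averaged 26391 normalised counts in WT and 57754 in the Mmp13-/- samples. Library totals ran from 28442936 to 29980236 counts in WT and from 21561420 to 26547121 in the Mmp13-/- samples. The genotypes also differed in reads over genes that pulp is not known to use. Across 1451 odorant and vomeronasal receptor genes, which serve the sensory neurons of the nose, libraries held 0.0947 to 0.116 counts per kb of exon in WT and 1.505, 1.76 and 4.80 in Mmp13-/- replicates 1, 2 and 6. Sample 6 stood apart in this respect, and results that rest on it are given with and without it.

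Promoters of the liver-restricted Fga and Fgb and the locally made F13a1 and Tfpi are printed to show where a liver motif was and was not found. Promoter windows of 300 bases (RefSeq, GRCm38.p6, 250 before and 50 after the start) were given for 24 of the 31 members. The letters GTTAAT, part of the binding sequence of the hepatocyte factor HNF1, were searched on both strands, as were the other motifs, and none of the 3 strings contains another. They were present in the windows of 4 of 12 liver-restricted members (F13b, F2, Fga and Fgb), 1 of 8 locally made members (Tfpi2) and 0 of 4 of the class between, and in 7.20% of all 27025 promoters. GGGCGG, the GC box, was present in 5 of 8 locally made (F3, Plaur, Pros1, Serpine2 and Tfpi), 1 of 4 intermediate and 1 of 12 liver-restricted windows, against 35.9% of all promoters. TATAAA was present in 2 of 8, 0 of 4 and 1 of 12, against 14.2%. The 150 bases before the RefSeq start follow for 4 members, with GTTAAT or its reverse complement in capitals. Fga and Fgb encode fibrinogen chains and had no count in any WT sample, and F13a1 and Tfpi are locally made members that rose in Mmp13-/- pulp.
Fga promoter, chr3:83026003-83026152, plus strand: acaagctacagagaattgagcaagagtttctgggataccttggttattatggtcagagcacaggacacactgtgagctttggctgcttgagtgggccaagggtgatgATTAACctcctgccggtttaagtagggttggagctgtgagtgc
Fgb promoter, chr3:83049864-83050013, minus strand: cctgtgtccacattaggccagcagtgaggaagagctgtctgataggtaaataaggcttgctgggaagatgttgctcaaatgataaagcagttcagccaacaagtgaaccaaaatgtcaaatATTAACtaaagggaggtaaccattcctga
F13a1 promoter, chr13:37050245-37050394, minus strand: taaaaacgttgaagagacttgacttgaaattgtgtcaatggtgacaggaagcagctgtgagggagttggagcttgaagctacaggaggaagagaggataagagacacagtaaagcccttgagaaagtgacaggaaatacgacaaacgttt
Tfpi promoter, chr2:84476760-84476909, minus strand: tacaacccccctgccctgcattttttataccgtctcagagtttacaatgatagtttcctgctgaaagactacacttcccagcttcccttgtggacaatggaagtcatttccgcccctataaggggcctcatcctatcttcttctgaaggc
The Fga and Fgb windows each hold the motif, close to the start, and the F13a1 and Tfpi windows do not. All 4 lie directly 5′ of the RefSeq start, and the GENCODE models of Fga and Tfpi begin inside their windows.

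In WT pulp the 9 members with the highest level per kb were all locally made, while the locally made F13a1, Tfpi and Tfpi2 were below the level of Serpind1, a liver-restricted gene. Per kb of exon (GENCODE M21 lengths on GRCm38), Serpine2 and Thbd had the highest WT means at 273 and 272 normalised counts per kb, followed by Vwf (207), Pros1 (191), F3 (167), Plau (143), Plaur (143) and Plat (131). Procr followed at 52.1 and F13a1 at 29.4 per kb, with Tfpi (10.3) and Tfpi2 (6.38) the lowest of their class. F5, F8 and F10 were near Tfpi, at 16.3, 11.7 and 10.6 per kb, and F7 was at 2.06. Of the 15 liver-restricted genes, Serpind1 (30.7 per kb) and Serpinc1 (18.1 per kb) exceeded 20 counts in a WT sample. The other liver-restricted members were between 0 and 3.25 per kb, and 6 of them (F9, F11, F13b, Fga, Fgb and Proc) had 0 counts in all 3 WT samples. A count of 0 allows up to 3 counts, which is 0.1001 to 0.139 CPM in these libraries, counting error only.

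**Figure D1:**
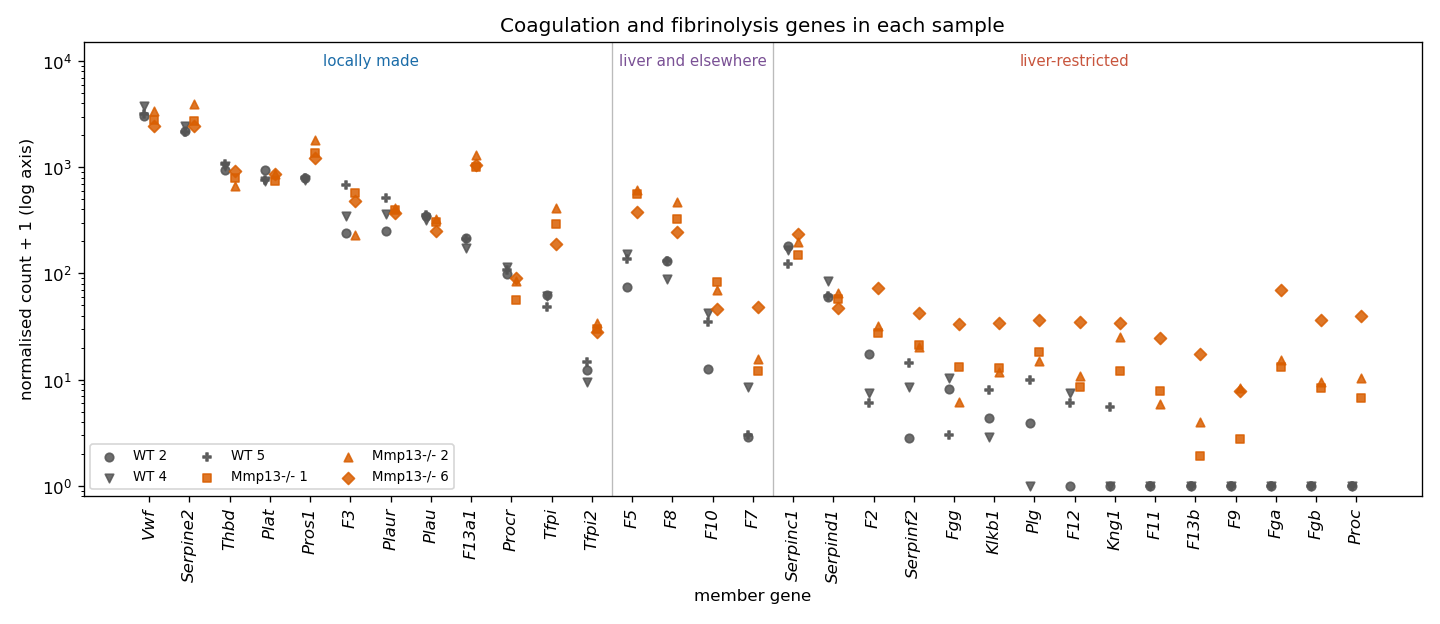
Normalised count + 1 (log axis) of each member in each of the 6 samples, with members ordered within the 3 classes by WT level; grey points are WT and orange points Mmp13-/- samples. The locally made genes reach 3321 normalised counts on average in WT (Vwf), 6 liver-restricted genes sit at 0 in every WT sample, and in 13 of the 15 liver-restricted genes the highest point is Mmp13-/- sample 6.

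Of the 31 members, 24 passed the filter on low counts and were tested. In Mmp13-/- pulp 14 rose (adjusted p under 0.05), where 27.3% of the 24534 genes tested across the table rose, and 0 fell, where 24.3% fell. Over 2-fold, 13 were higher against 20.4% of all tested genes, and 0 were lower against 9.68%. DESeq2 likewise called 0 members lower. These counts mix unlike genes. For the 8 tested members at or under 20 counts in every WT sample, the filter, which asks for counts in 3 samples, was met by the Mmp13-/- samples, so their calls do not serve as support. Among the 16 members over 20 counts in a WT sample, 6 rose, 0 fell and 10 did not pass, with a median log2 fold change of 0.19 against 0.10 over all tested genes. In bulk RNA, more cells of a type and more RNA per cell cannot be told apart.

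**Figure D2:**
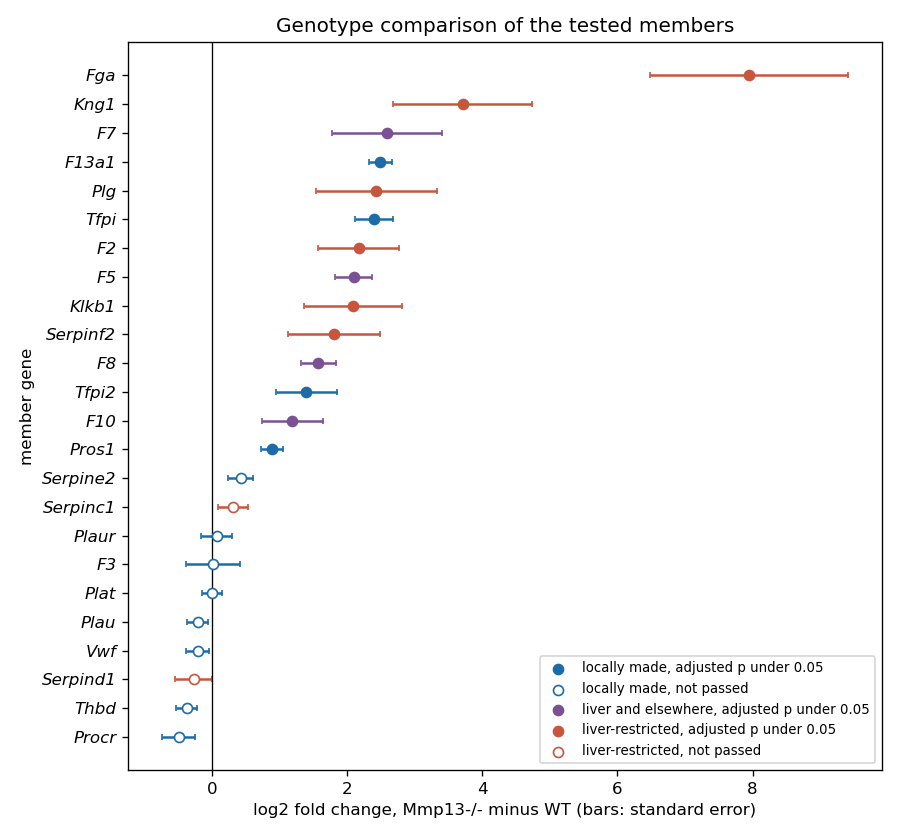
Log2 fold change (Mmp13-/- minus WT) of the 24 tested members, with bars of 1 standard error; filled points had an adjusted p under 0.05, and colours give the class. The locally made genes gather around 0 apart from F13a1, Tfpi, Tfpi2 and Pros1; the fitted value of Fga, at 0 in WT, depends on the prior count and has no fixed size.

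The tissue factor pathway that starts clotting was split. F3 encodes tissue factor, the cell-surface trigger, and had 238, 346 and 685 normalised counts for WT replicates 2, 4 and 5 and 577, 228 and 482 for Mmp13-/- replicates 1, 2 and 6. The genotypes overlapped fully, with means of 423 ± 233 and 429 ± 181 (SD, n = 3 each) and a log2 fold change of 0.02 (SE 0.40, adjusted p = 0.974). F5 encodes the cofactor of factor X and also travels in platelets. It had 73.8, 152 and 137 normalised counts in WT samples and 560, 605 and 380 in the Mmp13-/- samples, so that every Mmp13-/- value lay above every WT value. F5 rose 4.28-fold (log2 fold change 2.10, SE 0.28, adjusted p = 0.000285) and passed in 16 of 16 alternative settings, with a log2 fold change of 2.27 without Mmp13-/- sample 6.

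F10, which encodes the protease that cuts prothrombin, was lower and less certain. It had 12.4, 43.8 and 33.9 counts in WT and 94.6, 75.1 and 28.7 in the Mmp13-/- samples, and after normalisation all 3 Mmp13-/- values (82.1, 68.6 and 45.5) were above the highest WT value of 41.2. Its log2 fold change of 1.19 (SE 0.45) passed narrowly (adjusted p = 0.0479), and its call was lost without WT sample 2 (log2 fold change 0.74), WT sample 5 (1.25), Mmp13-/- sample 1 (0.94) or Mmp13-/- sample 2 (1.11), with adjusted p from 0.0763 to 0.150. F10 also did not pass after subtraction of the receptor rate (1.13, adjusted p = 0.0877) or with limma on the log2 values (1.27). F7, the partner of tissue factor, lies beside F10 on chromosome 8 (F7 at 13026034 to 13035809, F10 at 13037308 to 13056676, GRCm38, same strand). F7 had 2, 8.08 and 2 counts in WT and 12.7, 16 and 29.6 in the Mmp13-/- samples. It rose by a log2 fold change of 2.59 (SE 0.81, adjusted p = 0.0217), which became 1.73 (adjusted p = 0.0522) without Mmp13-/- sample 6 and missed the threshold without WT sample 2 (2.20, adjusted p = 0.0821) or WT sample 5 (2.22, adjusted p = 0.0826). F2 encodes prothrombin and had 17.5, 6.91 and 4.98 counts in WT and 30.4, 34.2 and 45.1 in the Mmp13-/- samples. F2 rose with a log2 fold change of 2.17 (SE 0.60, adjusted p = 0.0125), was at 1.62 without Mmp13-/- sample 6 and missed the threshold without WT sample 4 (1.94, adjusted p = 0.0554).

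Of the 2 well-counted genes of the contact and intrinsic pathway, F8 rose and Vwf did not pass. F8, the cofactor made largely by endothelium, had 131, 87.4 and 130 normalised counts in WT samples and 326, 466 and 244 in the Mmp13-/- samples, with no overlap. F8 rose 2.99-fold (log2 fold change 1.58, SE 0.26, adjusted p = 0.000925), was at 1.77 without Mmp13-/- sample 6, and fell back to 0.78 (adjusted p = 0.0152) with a correction for GC content. With that correction and subtraction of the receptor rate together, F8 was at 0.64 and did not pass (adjusted p = 0.0654). Vwf encodes von Willebrand factor, the platelet adhesion protein that carries factor VIII and is stored in endothelium and megakaryocytes. It was the most counted member, with 3016, 3747 and 3201 normalised counts in WT and 2785, 3396 and 2438 in the Mmp13-/- samples, and the genotypes overlapped. The log2 fold change of Vwf was -0.21 (SE 0.17, adjusted p = 0.331), and it turned to 0.72 (adjusted p = 0.00233) with the GC correction, so no direction is given for it. Exons of Vwf are 56.5% GC and those of F8 39.0%.

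The other contact and intrinsic genes were counted in single or double digits. Kng1, the kininogen gene, had 0, 0 and 4.57 counts in WT and 12.7, 26.5 and 20.8 in the Mmp13-/- samples, and Klkb1, the plasma prekallikrein gene, had 3.56, 2 and 7.07 against 13.5, 11.8 and 20.8. Both rose, with log2 fold changes of 3.71 (SE 1.03, adjusted p = 0.0126) for Kng1 and 2.09 (SE 0.72, adjusted p = 0.0343) for Klkb1. The WT level of Kng1 rests on sample 5, without which every WT value was 0, the fitted log2 fold change was 7.48 and its size depends on the prior count. Kng1 missed the threshold without WT sample 4 (3.11, adjusted p = 0.0596), and Klkb1 missed it when any of the 6 samples was left out (adjusted p from 0.0501 to 0.154) and with the GC correction (1.92, adjusted p = 0.0962). Without Mmp13-/- sample 6, the log2 fold change was 3.38 for Kng1 and 1.45 for Klkb1. F11 had 0 counts in every WT sample and 7.91, 5.39 and 14.9 in the Mmp13-/- samples, and F9 had 0 in WT and 2, 8 and 4.33. F12 had 0, 6.93 and 5.03 in WT and 8.60, 10.8 and 21.2 in the Mmp13-/- samples. These 3 protease genes failed the filter and were not tested. Klkb1 shares 43.2% of its exon bases with Gm45753 on the same strand, and Kng1 has a close paralog, Kng2, so their reads could be split or shared.

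Among the fibrin genes, the crosslinking A chain and the fibrinogen chains were at opposite ends of the count range. F13a1 encodes the A chain of factor XIII, the transglutaminase that crosslinks fibrin, and is known from macrophages and platelets. It had 213, 173 and 208 normalised counts in WT samples and 1008, 1298 and 1042 in the Mmp13-/- samples. The WT mean was 198 ± 21.6 and the Mmp13-/- mean 1116 ± 158 (SD, n = 3 each), with every Mmp13-/- sample far above every WT sample. F13a1 rose 5.64-fold (log2 fold change 2.50, SE 0.16, adjusted p = 1.95e-05). It passed in 16 of 16 alternative settings, between 2.32 and 2.71 on the log2 scale, and was at 2.55 without Mmp13-/- sample 6.

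Fga, Fgb and Fgg, the 3 fibrinogen chain genes, are neighbours on chromosome 3. Fga had 0 counts in each WT sample and 13.8, 15.7 and 43.3 in Mmp13-/- replicates 1, 2 and 6. Against a floor of 3 counts per library, Fga was at least 10.98-fold higher in Mmp13-/- pulp (adjusted p = 0.00277), or at least 4.57-fold without sample 6, and it passed in the 13 alternatives in which it was tested. Fgb also had 0 in WT, with 8.53, 9.30 and 22.1 counts in the Mmp13-/- samples, at least 5.89-fold higher, or at least 2.76-fold without sample 6. Fgg differed from its neighbours in having WT counts, 7.61, 10 and 2 against 14.1, 5.67 and 20.3, and its genotypes overlapped. F13b, which encodes the carrier B chain of factor XIII, had 0 in WT and 1.05, 3.22 and 10.3 in the Mmp13-/- samples. Its Mmp13-/- mean without sample 6 was 0.67 times the floor, so no fold is given for it. Fgb, Fgg and F13b were not tested because they failed the filter, and in all 4 of these liver-restricted fibrin genes the highest value was in Mmp13-/- sample 6.

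Of the anticoagulant genes 3 rose, beside 27.3% of all tested genes, 4 did not pass and 1 was not tested. Tfpi2, among the 3 that rose, was at or under 20 counts in every WT sample and met the filter through the Mmp13-/- samples. Tfpi encodes the inhibitor of the tissue factor and factor VII complex and had 61.9, 59.9 and 47.3 normalised counts in WT samples and 294, 408 and 190 in the Mmp13-/- samples. All 3 Mmp13-/- values were well above the WT values, and Tfpi rose 5.27-fold (log2 fold change 2.40, SE 0.28, adjusted p = 0.00018). With the GC correction it rose less, at 1.66 (adjusted p = 0.0015), and without Mmp13-/- sample 6 the log2 fold change was 2.63. Pros1 encodes protein S, the cofactor of activated protein C and a ligand of the TAM receptors that clear dying cells. It had 788, 761 and 792 normalised counts in WT samples and 1348, 1787 and 1214 in the Mmp13-/- samples, again without overlap. Pros1 rose 1.86-fold (log2 fold change 0.89, SE 0.16, adjusted p = 0.00154), between 0.61 and 1.10 in 16 of 16 alternatives that all passed.

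Tfpi2, a matrix-bound relative of Tfpi that inhibits plasmin and trypsin-like proteases, had 12, 8.94 and 13.7 counts in WT and 33.6, 36.1 and 17 in the Mmp13-/- samples. After normalisation the ranges were 8.41 to 13.7 and 26.9 to 33.0, with no overlap. Tfpi2 rose by a log2 fold change of 1.40 (SE 0.45, adjusted p = 0.025), but with the GC correction it was at 0.67 (adjusted p = 0.278). Its call was also lost without WT sample 2, 4 or 5 or Mmp13-/- sample 1 or 2 (log2 fold change 1.19 to 1.51, adjusted p 0.0628 to 0.117), and it was kept without Mmp13-/- sample 6 at 1.47.

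The endothelial receptors of the protein C system had lower values in the Mmp13-/- samples but did not pass. Thbd encodes thrombomodulin, which turns thrombin towards activating protein C, and had 932, 1028 and 1076 normalised counts in WT samples and 787, 659 and 913 in the Mmp13-/- samples. Its ranges did not overlap, and its log2 fold change was -0.37 (SE 0.15, adjusted p = 0.0696). Without Mmp13-/- sample 6 it was -0.48 (adjusted p = 0.0202) and without WT sample 2 it was -0.50 (adjusted p = 0.0452), both past the threshold, whereas with the GC correction it was 0.17. Procr encodes the endothelial protein C receptor and had 96.8, 115 and 106 normalised counts in WT and 55.6, 84.1 and 89.2 in the Mmp13-/- samples, also without overlap. Its log2 fold change was -0.49 (SE 0.25, adjusted p = 0.124) and was 0.01 with the GC correction. The measured endothelial markers were mostly lower too. Of 11 such genes 8 fell and 1 rose, beside 24.3% and 27.3% of all tested genes. Cdh5, among those that fell, did not pass without Mmp13-/- sample 6 (log2 fold change -0.33, adjusted p = 0.0821). The 1 that rose was Emcn (log2 fold change 1.47, adjusted p = 0.000379), and Pecam1 (0.09) and Tek (0.20) did not pass. The summed level of the 11 was 12535 to 13983 normalised counts in WT and 7576 to 10441 in the Mmp13-/- samples. The part of endothelial content in the values of Thbd, Procr and Vwf was not tested.

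Serpinc1, the antithrombin gene, and Serpind1, the heparin cofactor II gene, were the liver-restricted members with the most counts in both genotypes. Serpinc1 had 178, 164 and 122 normalised counts in WT and 149, 196 and 234 in the Mmp13-/- samples, and Serpind1 had 58.5, 83.2 and 59.9 against 56.7, 64.1 and 45.8. Both overlapped between genotypes, with log2 fold changes of 0.31 (SE 0.22, adjusted p = 0.271) and -0.27 (SE 0.28, adjusted p = 0.445). Of the exon bases of Serpinc1, 34.4% are shared with Zbtb37 on the opposite strand, and Serpind1 lies wholly inside Pi4ka on the opposite strand. Whether the libraries kept strand is not stated, so reads of these partners cannot be told apart from their own. Proc, the protein C gene, had 0 counts in each WT sample and 6.56, 10.2 and 24.4 in the Mmp13-/- samples, at least 6.21-fold higher on the mean, or at least 2.61-fold without sample 6, and failed the filter.

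The well-counted genes of fibrinolysis did not pass. Plat encodes tissue-type plasminogen activator and had 948, 740 and 757 normalised counts in WT and 742, 859 and 861 in the Mmp13-/- samples. Its log2 fold change was 0.01 (SE 0.15, adjusted p = 0.969). Plau, the urokinase gene, had 349, 319 and 350 against 307, 324 and 249 normalised counts, with a log2 fold change of -0.21 (SE 0.16, adjusted p = 0.299). Plaur encodes the urokinase receptor and had 248, 366 and 508 against 391, 413 and 373, with a log2 fold change of 0.07 (SE 0.23, adjusted p = 0.810). The ranges overlapped for all 3. Plaur passed with the GC correction (0.73, adjusted p = 0.0342), whereas Plat and Plau passed in 0 of 16 alternatives each.

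Serpine2, the protease nexin gene, encodes a cell-bound inhibitor of thrombin, urokinase and plasmin, and had the highest level per kb of all members in both genotypes. It had 2181, 2442 and 2167 normalised counts in WT samples and 2743, 3933 and 2463 in the Mmp13-/- samples, which did not overlap by a narrow margin. Its log2 fold change was 0.43 (SE 0.19, adjusted p = 0.0817), and it passed in 5 of 16 alternatives, among them without Mmp13-/- sample 6 (0.56, adjusted p = 0.0171). Plg, the plasminogen gene, had 3.10, 0 and 8.82 counts in WT and 19.9, 15.2 and 22.4 in the Mmp13-/- samples. Serpinf2, the antiplasmin gene, had 1.90, 7.90 and 13.4 in WT and 23.1, 21.3 and 26 in the Mmp13-/- samples. Both rose, Plg by a log2 fold change of 2.43 (SE 0.89, adjusted p = 0.0433) and Serpinf2 by 1.81 (SE 0.68, adjusted p = 0.0461). Neither passed without Mmp13-/- sample 6 (1.98 and 1.39, adjusted p 0.0786 and 0.0913), and both were also lost without WT sample 2 (2.17 and 1.28), WT sample 4 (1.81 and 1.78), Mmp13-/- sample 1 (2.51 and 1.92) or Mmp13-/- sample 2 (2.63 and 1.94). Without WT sample 5, Plg was at 3.74 (adjusted p = 0.0233). Plg shares 11.3% of its exon bases with Slc22a3 on the opposite strand.

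The members were also read by class. Of the 12 locally made genes, all of which were tested, 4 rose, beside 27.3% of all tested genes, and 8 did not pass. The median log2 fold change of the 12 was 0.05, and 0 had their highest value in Mmp13-/- sample 6. Tfpi2, among those that rose, was at or under 20 counts in every WT sample and met the filter through the Mmp13-/- samples. Of the 15 liver-restricted genes, 8 were tested. The 6 that rose are all at or under 20 counts in every WT sample, so that count is not set against the locally made genes, and the 2 others, Serpinc1 and Serpind1, did not pass. The highest normalised value was in Mmp13-/- sample 6 for 13 of the 15. All 4 genes of the class made in liver and elsewhere rose over 2-fold, as did 20.4% of all tested genes, but F7 met the filter through the Mmp13-/- samples, and F7 and F10 passed in 12 of 15 and 10 of 16 alternatives. With the GC correction, the low-count genes F7, F2, Plg and Serpinf2 had larger log2 fold changes of 3.50, 2.91, 3.06 and 2.69, while Klkb1 and Tfpi2 had smaller ones of 1.92 and 0.67 and lost their calls. Counted over samples without a test, every Mmp13-/- sample was above every WT sample for 21 of the 31 members, tested or not. The share was 31.8% over all tested genes, a set that leaves out genes failing the filter. Split by WT count, this held for 7 of the 16 members over 20 counts in a WT sample, all of which were tested, beside the 31.8% of tested genes at any WT count. It held for 14 of the 15 members at or under 20 counts in every WT sample, where it also held for 69.4% of 6705 protein-coding genes with such low WT counts.

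The low members were then set beside the receptor genes. The 15 members at or under 20 counts in every WT sample summed to 47.7, 50.8 and 61.6 counts in WT samples and 208, 229 and 343 in Mmp13-/- replicates 1, 2 and 6. They were highest in the library that also had the highest receptor rate, and after normalisation the Mmp13-/- sums were 181, 210 and 543. If each gene took counts at the receptor rate of its library in proportion to exon length, these 15 genes would hold 65.6, 76.5 and 209 counts in the Mmp13-/- samples. The measured sums were 3.18, 3.00 and 1.64 times those values. In WT, where the receptor rate was far lower, the sums were 9.42, 11.8 and 14.9 times what the rate gives. The 16 better counted members were at 103, 101 and 16.3 times the receptor rate, so the margin was smallest in sample 6 for both groups.

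Individual liver-restricted genes spread from below to several times the receptor rate. F13b (0.28, 0.72 and 0.85 times) was below it in all 3 Mmp13-/- samples, and F9 (0.49, 1.67 and 0.33 times) and Klkb1 (1.71, 1.28 and 0.83 times) crossed it. Fgb was at 1.49, 1.39 and 1.21 times and F11 at 2.35, 1.37 and 1.39 times the rate. Proc (1.76, 2.35 and 2.05 times) and Fga (3.06, 2.97 and 3.00 times) kept similar ratios to it while their counts differed several-fold between samples. F7 was at 4.53, 4.91 and 3.32 times and F2 at 4.40, 4.24 and 2.05 times. By contrast, F13a1 was at 114, 120 and 20.3 times the rate, Tfpi at 41.2, 46.5 and 4.58, F5 at 57.7, 50.7 and 6.73 and Pros1 at 252, 272 and 39.0. After the rate was subtracted from every gene, 20 members were left to test and 9 rose (F13a1, F2, F5, F7, F8, Pros1, Serpine2, Tfpi and Tfpi2), while Fga, Klkb1, Kng1 and Plg no longer passed the filter. F10 (log2 fold change 1.13, adjusted p = 0.0877) and Serpinf2 (1.49, adjusted p = 0.0803) were still tested but lost their calls. F13a1 was then at 2.64, Tfpi at 2.47, F5 at 2.18, F8 at 1.58 and Pros1 at 1.04 on the log2 fold change scale. What placed reads over receptor genes in these libraries was not tested.

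**Figure D3:**
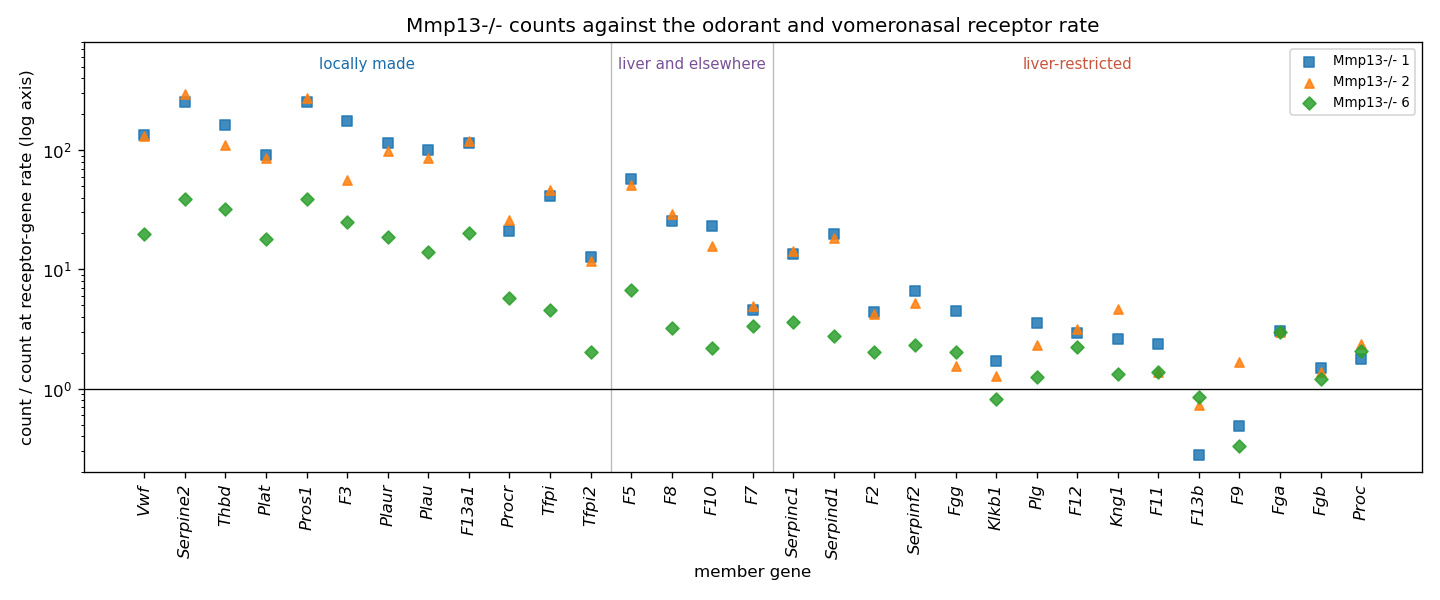
Count of each member in Mmp13-/- replicates 1, 2 and 6, divided by the count it would have at that sample's receptor-gene rate for its exon length (log axis), in the member order of the plot of normalised counts; the line marks a ratio of 1. Most liver-restricted genes lie within a few times of the line, F13b is below it in all 3 samples, and F13a1 is at 114, 120 and 20.3 times.

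**Figure D4:**
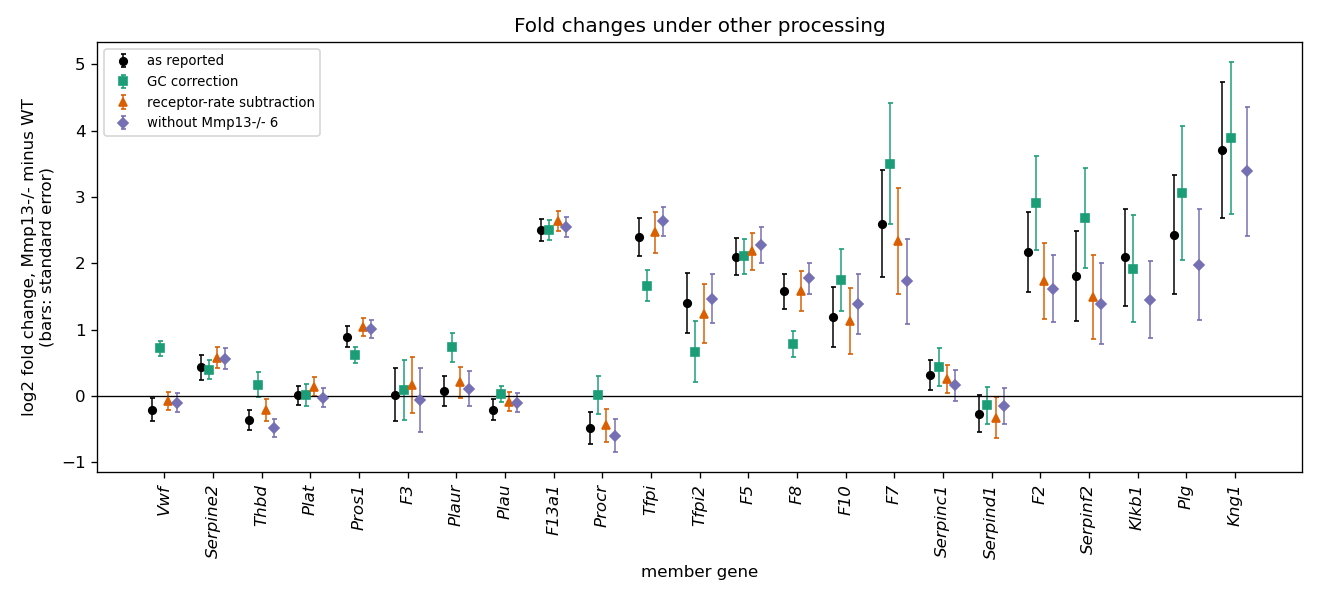
Log2 fold change (Mmp13-/- minus WT, bars of 1 standard error) of the tested members as reported, with GC correction, with receptor-rate subtraction and without Mmp13-/- sample 6; Fga is left out for its scale, and genes no longer tested lack a point. F13a1, F5 and Tfpi stay above 1.5 under all 4, F8 drops to 0.78 and Vwf turns to 0.72 with the GC correction.

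Hepatocyte markers were examined beside the liver-restricted genes. Of 12 markers, 5 passed the filter and 3 rose (Apoa1, Apob and Tat), beside 27.3% of all tested genes. The 3 that rose had at most 6 counts in any WT sample and met the filter through the Mmp13-/- samples. Their calls therefore do not serve as support. Without Mmp13-/- sample 6, Apoa1 did not pass (log2 fold change 1.83, adjusted p = 0.0994), whereas Apob and Tat did. Alb, Apob and Fabp1 had 0 counts in every WT sample. Apob, the apolipoprotein B gene, had 20.4, 28.4 and 73.4 counts in Mmp13-/- replicates 1, 2 and 6 (adjusted p = 0.0018). Alb, the albumin gene and among the most abundant transcripts of liver, had 5.95, 3.05 and 15.9 counts in the Mmp13-/- samples. The 12 markers summed to 24.7 to 52.8 normalised counts in WT and 89.4 to 356 in the Mmp13-/- samples, at 1.97, 1.93 and 1.35 times the receptor rate. The corresponding ratios in WT were 8.93, 7.67 and 16.1. The part of liver RNA in the values of the liver-restricted members was not tested.

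Markers of cells known to make F13a1, F5, Tfpi and Pros1 were examined as well. Of 9 macrophage markers 3 rose (Mrc1, Adgre1 and Cd163), a share near the 27.3% of all tested genes. Without Mmp13-/- sample 6, Csf1r rose as well (log2 fold change 0.55, adjusted p = 0.0144). The summed level of the 9 went from 4791 to 5027 normalised counts in WT to 6420 to 8111 in the Mmp13-/- samples. Mrc1, the mannose receptor of resident macrophages, had a log2 fold change of 1.76 (SE 0.19, adjusted p = 0.000128), while the complement genes C1qa, C1qb and C1qc did not pass. Of 9 megakaryocyte and platelet markers 5 rose, beside 27.3% of all tested genes. Among them were Ppbp (log2 fold change 2.61, adjusted p = 2.73e-05) and Pf4 (1.06, adjusted p = 0.00205). Gp1bb (-0.61, adjusted p = 0.0532) and Gp1ba (-0.38, adjusted p = 0.137) had lower values and did not pass. Without Mmp13-/- sample 6, Gp1bb fell (-0.82, adjusted p = 0.0225). The sum of the 9 markers was 1083 to 1711 in WT and 2378 to 3251 in the Mmp13-/- samples. All 8 neutrophil markers rose, from a summed 3743 to 7774 to 19438 to 47641 normalised counts. Skeletal muscle markers were abundant in WT libraries, with a summed 670285 to 887519 normalised counts. Of the 5, 4 fell, beside 24.3% of all tested genes, and the sum in the Mmp13-/- samples was 115428 to 288366. Of 6 odontoblast and pulp markers 1 rose (Dspp) and 3 fell (Col1a1, Col3a1 and Nes), and of 5 epithelial markers 2 fell (Krt5 and Krt14), beside the same shares of all tested genes (27.3% rose and 24.3% fell). The part of any of these in the members' values was not tested.

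The rest of the pathway was read from 4 further lists of 32 genes in all, of which 30 were tested, 11 rose and 7 fell, beside 27.3% and 24.3% of all tested genes, with a median log2 fold change of 0.27. Of 8 genes of the vitamin K cycle and factor secretion, which carboxylate, process and export clotting factors, 0 rose and 3 fell. These counts rest on Mmp13-/- sample 6. Lman1 (log2 fold change 0.58, adjusted p = 0.0125) and Vkorc1l1 (0.40, adjusted p = 0.0183) rose when it was left out. Fuca1, among those that fell, did not pass in that fit (-0.29, adjusted p = 0.0577), while the others still fell. Furin, a proprotein convertase, had 5057, 6069 and 5218 normalised counts in WT and 1581, 1613 and 1525 in the Mmp13-/- samples and fell by 1.79 on the log2 scale (SE 0.15, adjusted p = 5.21e-05). Ggcx, the vitamin K-dependent carboxylase, fell by 0.46 (adjusted p = 0.0225), and Vkorc1, which recycles vitamin K, had a log2 fold change of 0.26 (adjusted p = 0.469).

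Receptors for plasminogen and its activators went both ways. S100a10, which with annexin A2 binds plasminogen and Plat at the cell surface, had 419, 274 and 435 normalised counts in WT and 1251, 1299.5 and 1376 in the Mmp13-/- samples. It rose by a log2 fold change of 1.80 (SE 0.19, adjusted p = 0.000114), and its partner Anxa2 rose by 0.84 (adjusted p = 0.0015). Itgam, the integrin chain that binds fibrinogen on myeloid cells, rose by 1.17 (adjusted p = 0.00344), and Lrp1, which clears complexes of protease and inhibitor, fell by 1.03 (adjusted p = 0.00246). Of the 4 genes of the thrombin receptor family F2rl2 rose (log2 fold change 0.82, adjusted p = 0.0161), and F2r, the main thrombin receptor, was at 0.19 (adjusted p = 0.310).

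Among 12 other inhibitors and regulators, 10 were tested, 7 rose and 2 fell, beside 27.3% and 24.3% of all tested genes. Serpinb2, a serpin gene of activated macrophages, rose by 2.06 (SE 0.37, adjusted p = 0.00146), from 65.6 to 102 normalised counts in WT to 159 to 489 in the Mmp13-/- samples. A2m, Serpina10 and Adamts13 rose by 3.45, 3.49 and 2.03 on the log2 scale from 15.5 WT counts or fewer, and by 2.89, 2.53 and 1.49 without Mmp13-/- sample 6. Hrg had 0 counts in every WT sample and 14.7, 12.4 and 12.1 in the Mmp13-/- samples and also passed (adjusted p = 0.00197). A2m, Serpina10, Adamts13 and Hrg met the filter through the Mmp13-/- samples, so their calls do not serve as support. Proz rose by 0.99 (adjusted p = 0.0314) but did not pass without Mmp13-/- sample 6 (0.65, adjusted p = 0.0824). Gas6, a relative of Pros1 and ligand of the same receptors, fell by 1.06 (adjusted p = 0.000535), and Habp2, a factor VII activating protease, fell by 1.35 (adjusted p = 0.00018).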

How the data were processed

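RNA was sequenced from 3 dental pulp samples of WT and 3 of Mmp13-/- mice. Estimated counts for 53342 Ensembl genes were made by the authors in Strand NGS 4.0, with fractions where reads were shared. The deposited normalized values are log2 values made by the authors from those counts, and were equal to recomputed ones within 2.35e-06. The submitters' processing notes name mm10 and DESeq, and the aligner, annotation release and strand setting are not given in the sources used here.

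Counts were rounded and tested by genotype in R 4.3.3 with edgeR 4.0.16 (TMM factors, filterByExpr, quasi-likelihood test, Benjamini-Hochberg adjustment over 24534 genes), without covariates. A gene passed at an adjusted p under 0.05. SE is the log2 fold change divided by the root of its F statistic. The study's limit of 2-fold was counted separately. Exon lengths, GC content and positions came from GENCODE M21 (GRCm38), matched by Ensembl identifier for 99.8% of genes, and promoters from RefSeq. The receptor rate is counts per kb over 1451 odorant and vomeronasal receptor genes. The code was tested on simulated data.

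Alternatives were RLE or upper-quartile factors, totals alone, no filter, a minimum of 10 counts in each library, DESeq2 1.42.0, limma 3.58.1 on the log2 values, each sample left out, a GC correction (loess, span 0.4, genes above a mean log2 CPM of 3) and subtraction of the receptor rate. GC correction and subtraction together, and bounds and pathway genes without Mmp13-/- sample 6, were chosen after seeing the data. All 31 members are named, and of the other lists the genes called over 2-fold and defining genes that bear on a member. Members and lists were chosen with earlier results of these data known. 1 regulator gene of these lists is not reported here.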

Additional observations from a re-analysis of the deposited data

How the results depend on the processing

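The count of members that rose was 14 as reported and 14, 15 and 14 with RLE factors, upper-quartile factors and totals alone, 17 without a filter, 15 with DESeq2, 12 with limma, 14 with GC correction and 10 with GC correction and receptor-rate subtraction together. It was 7 with at least 10 counts in every sample and 9 with subtraction, where fewer low-count members were tested, and 9 to 11 with a sample left out (9 without WT replicate 2, WT replicate 4 or Mmp13-/- replicate 2). With subtraction, F10 and Serpinf2 were tested but did not pass. Members over 2-fold higher (13) numbered 6 with at least 10 counts, 8 with subtraction, 7 with both corrections and 8 to 10 with a sample left out. Members that fell (0) numbered 1, Thbd, without a filter, and 0 to 1 with a sample left out (Thbd without WT replicate 2 or Mmp13-/- replicate 6). Genes called across the table (12665) were 19292 without a filter, where more genes were tested, 7514 with both corrections, and 10915 to 12864 with a sample left out. Vwf turned from -0.21 to 0.72 with GC correction and 0.71 with both corrections, and the cause was not tested. F5, F13a1, Tfpi and Pros1 passed in 16 of 16 alternatives and Fga in 13 of 13. Fga was not tested with at least 10 counts in every sample or with receptor-rate subtraction, alone or with GC correction. F8 passed in 15 of 16, F2 in 14 of 15, Kng1 in 12 of 13, F7 in 12 of 15, F10 in 10 of 16, Plg in 8 of 13, Serpinf2 in 8 of 15, Tfpi2 in 7 of 15 and Klkb1 in 5 of 13. Fga, F2, Kng1, F7, Plg, Serpinf2, Tfpi2 and Klkb1 met the main filter through the Mmp13-/- samples, so their passes do not serve as support. F3, Procr, Serpinc1, Serpind1, Plat and Plau passed in 0 of 16.

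Over all genes tested, scaling took the median log2 fold change from 0.10 to 0.32 with upper-quartile factors, 0.21 with totals alone and 0.33 with GC correction. The share of calls that were higher went from 53.0% to 63.9%, 69.2% and 74.1% in that order, 65.9% without a filter and 65.6% with both corrections. No paired analysis was possible because the genotypes share only 1 replicate number. Depth limits the members with 0 WT counts to bounds against 3 counts.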
